A study of Mus musculus with 3 samples.

Results

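*Mgarp*, the gene that the study calls *Hummr*, was set beside 8 genes of the machinery that moves, joins and divides mitochondria, *Rhot1*, *Rhot2*, *Trak1*, *Trak2*, *Mfn1*, *Mfn2*, *Opa1* and *Dnm1l*. The 9 genes were chosen by name from 21911 protein-coding genes of GENCODE on mm10, and a peak was counted for a gene when it overlapped the gene or came within 50 kb of either end. By this rule 9 of the 5721 peaks called in vehicle-treated cells and 4 of the 4025 peaks called in cAMP-treated cells belonged to the set. Ad4BP/SF-1 was immunoprecipitated from Leydig cells of male ICR mice aged 9 weeks. The cells were isolated on a Percoll gradient from the pooled testes of 10 mice and cultured on collagen type I, and 1 library was made after vehicle and 1 after cAMP, so that both groups share strain, age and culture and no difference between them could be set against replicate error. The dose and duration of the cAMP treatment are not given in the sources used here. Each peak carries a MACS score, the authors' value of 10 times the negative log10 of the p-value, and because the score rises with sequencing depth, which the lists do not give, the place of a peak within its own list is printed beside its score. The medians of the lists were 72.4 (vehicle) and 67.9 (cAMP). A peak is a measure of binding and not of expression, and the lists therefore cannot show which cell types were present. Of 8 Leydig marker genes 4 had a vehicle peak and 3 a cAMP peak within 50 kb, of 5 Sertoli cell markers 2 and 2, and of 5 germ cell markers 1 and 1, beside 36.7% and 28.8% of all protein-coding genes.

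Ad4BP/SF-1 (NR5A1) is an orphan nuclear receptor that binds DNA as a monomer and is required for the expression of steroidogenic genes. In a Leydig cell, cholesterol has to reach the inner mitochondrial membrane before CYP11A1 can cleave its side chain, so the position, contacts and shape of mitochondria belong to the setting in which steroids are made. MGARP is a mitochondrial membrane protein that was described as a regulator of mitochondrial movement in hypoxia and as a candidate for moving cholesterol from the endoplasmic reticulum to mitochondria. The Miro GTPases encoded by *Rhot1* and *Rhot2* sit in the outer mitochondrial membrane, and the adaptors TRAK1 and TRAK2 join them to kinesin and dynein motors. MFN1 and MFN2 fuse outer membranes, OPA1 fuses inner membranes, and DRP1, the product of *Dnm1l*, constricts and divides the organelle.

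The sequences at the centre of the results are those of the peak nearest to the *Mgarp* transcription start in each list. *Mgarp* was taken because it had the most peaks of the set and the only peak within its body in the cAMP list. The sequences were read from the GRCm38 (mm10) reference, which is the C57BL/6J sequence and not that of the ICR mice. The consensus searched for on both strands was TCAAGGTC, TCAAGGCC, CCAAGGTC or CCAAGGCC, and capitals mark it. In the first sequence, printed on the plus strand at chr3:51391607-51391905, the copy appears as its reverse complement because it lies on the minus strand, and the stretch runs on into exon 2, which begins at 51391825. The second, at chr3:51398024-51398274, is the middle of the vehicle peak upstream of the gene and has no copy.
*Mgarp* intron 2 and part of exon 2, called in cAMP-treated cells: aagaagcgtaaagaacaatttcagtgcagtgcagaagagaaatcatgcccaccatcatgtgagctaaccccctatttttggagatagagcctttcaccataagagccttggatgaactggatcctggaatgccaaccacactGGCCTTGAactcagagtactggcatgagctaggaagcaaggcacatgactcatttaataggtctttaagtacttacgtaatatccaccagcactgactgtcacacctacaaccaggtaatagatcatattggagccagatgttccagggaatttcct
*Mgarp* upstream, called in vehicle-treated cells: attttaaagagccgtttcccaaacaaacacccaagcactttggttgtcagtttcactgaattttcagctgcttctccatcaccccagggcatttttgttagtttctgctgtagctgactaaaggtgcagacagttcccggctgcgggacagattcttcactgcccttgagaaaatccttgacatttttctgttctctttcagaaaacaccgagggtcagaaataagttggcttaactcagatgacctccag

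The other peaks that hold the consensus are shown by the copy nearest to the peak centre (of the vehicle peak where both lists have one), with 26 bases on either side and read on the strand of the copy, so that the copies of the set can be compared. The first 2 lie near *Mgarp*, and the rest are named after the gene of the set in whose window they lie.
*Mgarp*, downstream, in both lists, chr3:51373125-51373184, minus strand: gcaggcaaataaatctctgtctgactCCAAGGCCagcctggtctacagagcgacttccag
*Mgarp*, beyond the 3′ end, vehicle, chr3:51387196-51387255, minus strand: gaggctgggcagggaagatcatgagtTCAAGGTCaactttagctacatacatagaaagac
*Mgarp* window at *Naa15*, cAMP, chr3:51416648-51416707, minus strand: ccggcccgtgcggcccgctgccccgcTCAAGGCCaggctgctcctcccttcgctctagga
*Rhot1* window, higher-scoring peak, vehicle, chr11:80161237-80161296, minus strand: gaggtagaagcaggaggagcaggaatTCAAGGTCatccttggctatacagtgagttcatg
*Rhot1* window, other peak, vehicle, chr11:80163707-80163766, minus strand: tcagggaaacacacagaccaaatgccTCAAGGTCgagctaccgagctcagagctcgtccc
*Rhot2* window, in both lists, chr17:25868154-25868213, plus strand: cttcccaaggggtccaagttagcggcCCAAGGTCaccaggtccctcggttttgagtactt
*Trak1*, lower-scoring peak, vehicle, chr9:121317431-121317490, plus strand: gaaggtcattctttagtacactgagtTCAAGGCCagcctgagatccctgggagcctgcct
*Trak1*, higher-scoring peak, vehicle, chr9:121344369-121344428, plus strand: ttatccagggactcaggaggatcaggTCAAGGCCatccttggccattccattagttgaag
*Mfn2*, vehicle, chr4:147899034-147899093, plus strand: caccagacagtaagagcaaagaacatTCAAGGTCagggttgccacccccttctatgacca

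*Mgarp* spans 51388412 to 51396738 of chromosome 3, is read from the minus strand, and its window held 3 peaks in each list. They fall at 5 places, of which only 1 was called in both lists. In cAMP-treated cells the highest-scoring of them, chr3:51391576-51391937, scored 147.76 and ranked 357 of 4025, above 91.1% of its list. It was centred in intron 2 of the principal transcript, 4.79 kb downstream of the transcription start site (TSS), and it also covered all 104 bp of exon 2, from 51391825 to 51391928. The consensus TCAAGGCC lay 3 bp from the peak centre and 68 bp from exon 2. No vehicle peak overlapped this site, and the nearest one was 4220 bp away. The vehicle list begins at a score of 50, although the stated calling threshold was more permissive, so a weaker enrichment at this site after vehicle would not be seen, and the absence of a call does not show that the site was unbound.

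The vehicle peaks stood on either side of the gene and not within it. The upstream peak, chr3:51397847-51398452, was centred 1.601 kb before the TSS, scored 73.14 and lay above 51.1% of its list. The peak beyond the 3′ end, chr3:51386946-51387355, scored 68.14 and lay above 43.3% of the list, and it held 1 consensus copy. Neither had a counterpart among the cAMP peaks.

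The place called in both lists was 23.4 kb downstream of the TSS in the vehicle list, at chr3:51372861-51373381, and 23.5 kb downstream in the cAMP list, at chr3:51372835-51373313. The peaks shared 453 bp and scored 78.73 and 76.52, above 57.3% and 61.1% of their lists. Each contained the same 2 copies, TCAAGGTC and CCAAGGCC, and the nearest protein-coding gene start was that of *Mgarp*. The remaining cAMP peak in the window, chr3:51416349-51416795, scored 56.02, above 22.9% of the list, and was nearer to another gene. It lay 20.02 kb upstream of *Mgarp* but inside *Naa15*, which encodes a subunit of the N-terminal acetyltransferase NatA, 1.42 kb from the *Naa15* 5′ end. Its GC content of 74.9% was the highest of the 13 peaks.

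**Figure D1:**
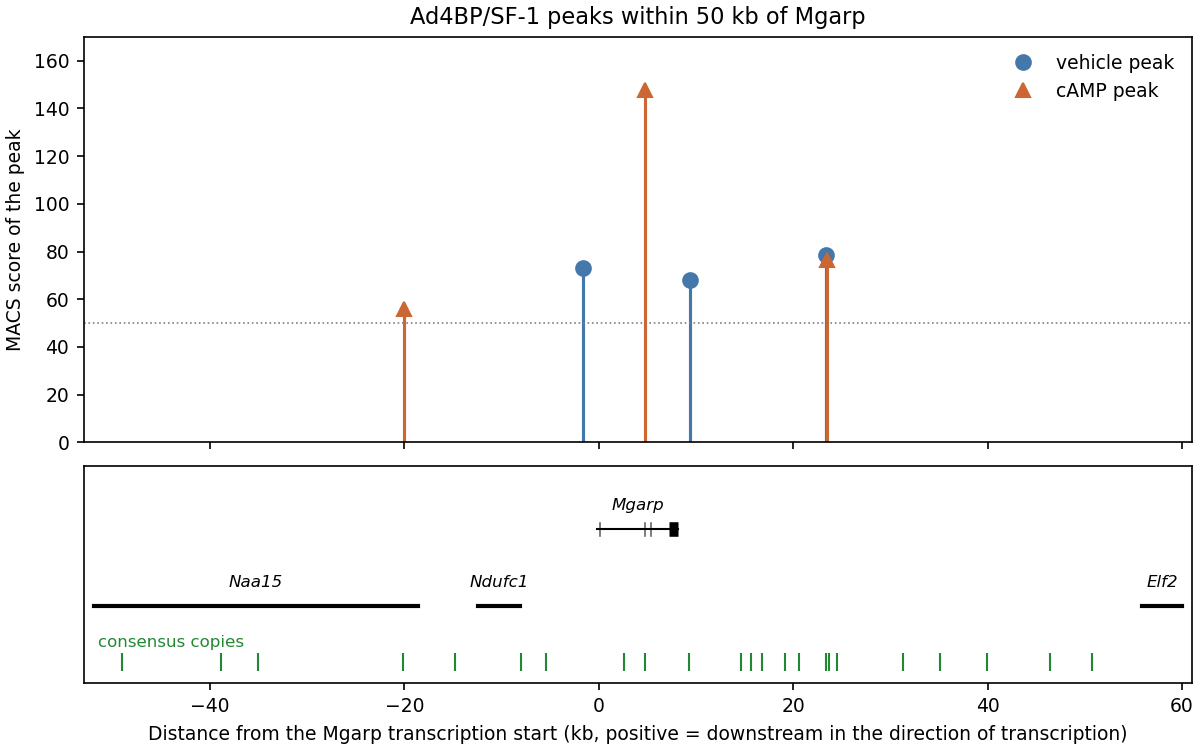
Scores of the peaks within 50 kb of *Mgarp* (upper panel, vertical axis, MACS score; circles vehicle, triangles cAMP) by distance in kb from its TSS, with the score of 50 at which the lists begin as a dotted line, and the genes, *Mgarp* exons and consensus copies of the window (lower panel). The cAMP peak of 147.76 stands 4.79 kb inside the gene, with vehicle peaks of 73.14 and 68.14 on either side and a place called in both lists 23.4 kb downstream.

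The window of *Mgarp* held 23 copies of the consensus, 2 of them in the gene, and 5 of the 23 lay in a peak of either list. The ChIP-qPCR primers of the study, shown here because they mark the stretch of *Mgarp* that was tested by PCR, each matched the window at 1 place.
Forward primer: tggatcctggaatgccaacc
Reverse primer: tgtgccttgcttcctagctc
Their product spans 70 bp, chr3:51391724-51391793, lies wholly inside the cAMP peak and includes its consensus copy. No listed vehicle peak covers it, with the same limit on weaker enrichment.

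The Miro genes had no peak in or at the gene in either list. For *Rhot1*, on chromosome 11 from 80209019 to 80267907, the window held 2 vehicle peaks and no cAMP peak. The higher, chr11:80161093-80161454, scored 107.50, above 76.9% of the list, and held 2 consensus copies. The lower, chr11:80163488-80164041, scored 67.87, above 42.8% of the list. Both lay inside *Adap2*, an ArfGAP gene, 47.8 and 45.3 kb upstream of *Rhot1* and 7.17 and 9.66 kb from the *Adap2* 5′ end, and the nearest cAMP peak was 79.2 kb beyond the gene on its other side.

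For *Rhot2*, on chromosome 17 from 25838457 to 25844851, each list held 1 peak at the same place. The vehicle peak, chr17:25867821-25868602, scored 158.22, ranked 561 and lay above 90.2% of its list, the highest score of any vehicle peak in the set. The cAMP peak, chr17:25867945-25868343, lay wholly inside it with a score of 50.34, above 1.62% of its list. The lowest score in the cAMP list is 50.01. The 2 peaks lie 23.4 and 23.3 kb upstream of *Rhot2* but 553 and 620 bp from the 5′ end of *Mcrip2*, and the window is crowded, with 15 other protein-coding genes. The vehicle peak contained 3 consensus copies and the cAMP peak 2 of these.

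Of the adaptor genes, only *Trak1* had a peak within 50 kb. *Trak1*, on chromosome 9 from 121297502 to 121474918, held 2 vehicle peaks, both in intron 1 of its longest transcript. They scored 76.60, at chr9:121317235-121317726, and 90.04, at chr9:121344155-121344641, above 55.0% and 67.9% of the list. They lay 19.98 and 46.9 kb downstream of the outermost 5′ end and 49.5 and 22.6 kb upstream of the TSS of the principal transcript. Each held TCAAGGCC, 19 and 1 bp from its centre. The cAMP peak nearest to the gene was 296 kb away. *Trak2*, on chromosome 1 from 58900449 to 58973430, had no peak in its window, and the nearest ones were 274 kb (vehicle) and 275 kb (cAMP) from the gene.

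Of the mitofusin genes, only *Mfn2* had a peak within 50 kb, and it was a low-scoring one. *Mfn2*, which besides fusion tethers mitochondria to the endoplasmic reticulum, lies on chromosome 4 from 147873599 to 147904704 and had 1 vehicle peak, chr4:147898754-147899304, in intron 3. It was centred 5.68 kb downstream of the TSS, and its score of 52.34 was the lowest of the vehicle peaks in the set, above 7.64% of the list. It contained TCAAGGTC 35 bp from the centre. The nearest cAMP peak to this site was 197 kb away. *Mfn1*, on chromosome 3 from 32529465 to 32579239, had no peak in its window, and the nearest, of the vehicle list, was 90.2 kb from the gene, beside 158 kb in the cAMP list.

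Neither *Opa1* nor *Dnm1l* had a peak within 50 kb. *Opa1* spans 29579334 to 29654884 on chromosome 16, and the nearest peaks were 162 kb (vehicle) and 164 kb (cAMP) from the gene. *Dnm1l*, on chromosome 16 from 16312230 to 16358959, had its nearest peaks 167 kb away in both lists, and these scored 226.79 and 181.38. A gene without a peak was not called at this depth, which is unknown and may differ between the libraries. It is not thereby shown to be unbound.

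**Figure D2:**
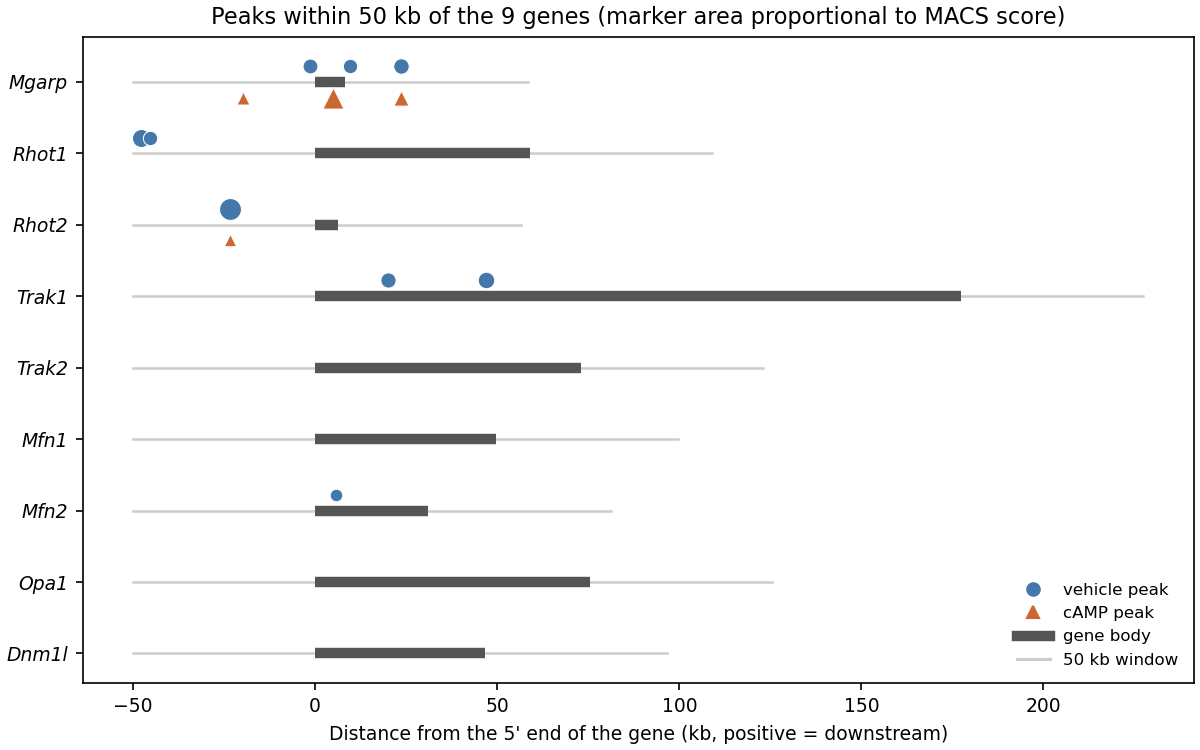
Positions of the 13 peaks along the 9 genes, aligned at their outermost 5′ ends (horizontal axis, kb, positive downstream; circles vehicle, triangles cAMP, marker area proportional to the MACS score; thick bars gene bodies, thin lines the 50 kb windows). Peaks lie inside *Mgarp*, *Trak1* and *Mfn2*, outside *Rhot1* and *Rhot2*, and are absent from the windows of the other 4 genes.

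Counted over the set, 5 of the 9 genes had a vehicle peak within 50 kb, beside 36.7% of all protein-coding genes, and 2 had a cAMP peak, beside 28.8%. The same 2 genes, *Mgarp* and *Rhot2*, had a peak in both lists, beside 22.5% of all genes. *Rhot1*, *Trak1* and *Mfn2* had a peak in the vehicle list alone, as did 14.3% of all genes, while no member had one in the cAMP list alone, as did 6.36%. Of all genes 43.1% had a peak in either list, and 5 of the 9 members did. With 9 genes, these counts are a description and say nothing particular about the set. Within the gene body the members with a peak were *Trak1* and *Mfn2* in the vehicle list, beside 12.6% of all genes, and *Mgarp* in the cAMP list, beside 9.16%, and none of the 3 had one in both, beside 6.42%. Genes with a peak in the body in the vehicle list alone made up 6.21% of all genes, and in the cAMP list alone 2.73%. Within 10 kb, *Mgarp*, *Trak1* and *Mfn2* had a vehicle peak, beside 19.3% of all genes, and of these only *Mgarp* had a cAMP peak, beside 13.9%, so that 1 member had both, beside 10.1%, 2 had a vehicle peak alone, beside 9.2%, and 0 a cAMP peak alone, beside 3.87%. A peak of either list within 10 kb was found for 23.1% of all genes, and one in the gene body for 15.4%.

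Long windows hold more peaks than short ones, so the peaks were also related to sequence length. The 9 windows span 1.43 Mb and held 6.31 vehicle and 2.80 cAMP peaks per Mb. The windows of all protein-coding genes held 3.07 and 2.09 per Mb, and the whole genome 2.16 and 1.52. The *Mgarp* window held 3 of the 9 vehicle and 3 of the 4 cAMP peaks, so the cAMP density rests largely on this gene. Of the 9 vehicle peaks, 6 had the start of the member as their nearest protein-coding gene start, and the other 3 were nearer to *Adap2* or *Mcrip2*. Of the 4 cAMP peaks, only the 2 in and downstream of *Mgarp* were nearest to the start of a member.

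The 13 peaks form 11 places, of which 2 were called in both lists, 7 in the vehicle list alone and 2 in the cAMP list alone. Among the 9 vehicle peaks 2 thus had a counterpart, a share of 22.2% (95% interval by the exact Clopper-Pearson method, 2.81% to 60.01%), beside 37.9% of all vehicle peaks. Among the 4 cAMP peaks 2 had one, a share of 50% (6.76% to 93.2%), beside 53.8% of all. Both shares include the value of their whole list in their intervals, which cover counting error only. The scores of the 9 vehicle peaks ran from 52.34 to 158.22 with a median of 76.6, and those of the 4 cAMP peaks from 50.34 to 147.76 with a median of 66.3, so that both medians were close to those of the lists.

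**Figure D3:**
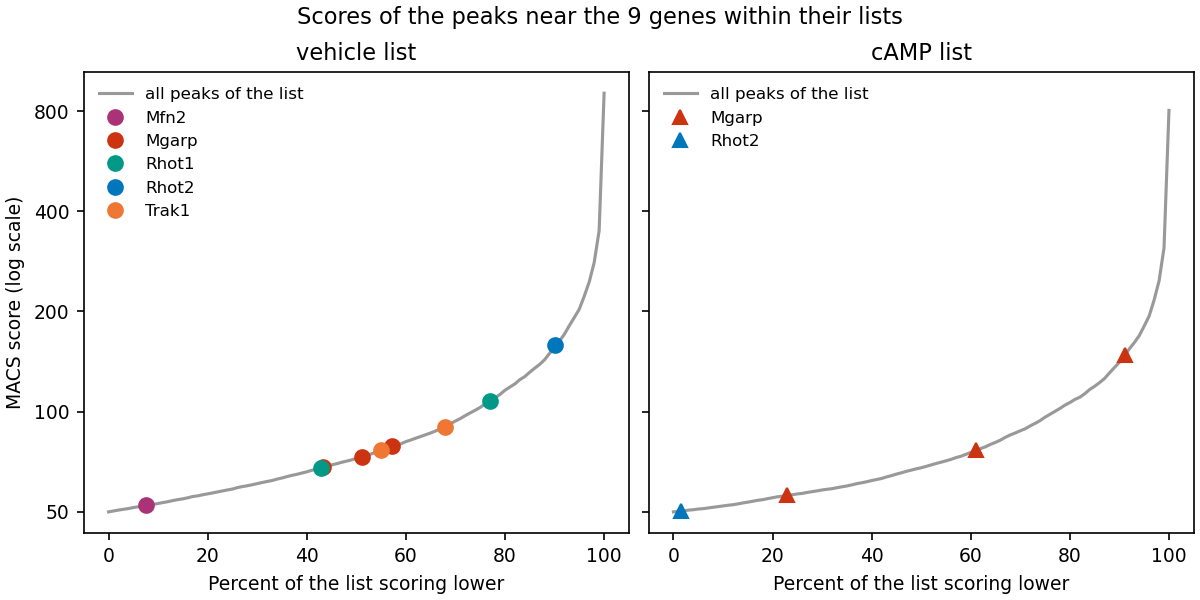
MACS score (vertical, log scale) against the percent of the list that scores lower for the peaks near the 9 genes, with all peaks of each list as a grey line. The highest member peaks are those near *Rhot2* in the vehicle list, above 90.2% of it, and in *Mgarp* in the cAMP list, above 91.1%, while the *Rhot2* peak of the cAMP list is above only 1.62%.

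Ordered by the distance from the 5′ end of the gene to the nearest peak, *Mgarp* came first of the 9 genes in both lists. In the vehicle list it was 1.11 kb, and 2.80% of protein-coding genes had a nearer peak. In the cAMP list it was 4.80 kb, with 3.73% of genes nearer. *Mgarp* was taken from the study of these same libraries, so its place in this order is a description and not a finding about the gene. *Mfn2* followed in the vehicle list with 5.40 kb, then *Trak1* with 19.7 kb and *Rhot2* with 23.0 kb. In the cAMP list only *Rhot2*, at 23.1 kb, was within 100 kb besides *Mgarp*. The medians were 120 kb over the 21728 protein-coding genes with a distance in the vehicle list and 168 kb over all 21911 in the cAMP list. *Trak2*, *Opa1* and *Dnm1l* were farther than the median in the vehicle list, and *Trak2*, *Mfn1*, *Mfn2*, *Opa1* and *Trak1* in the cAMP list.

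**Figure D4:**
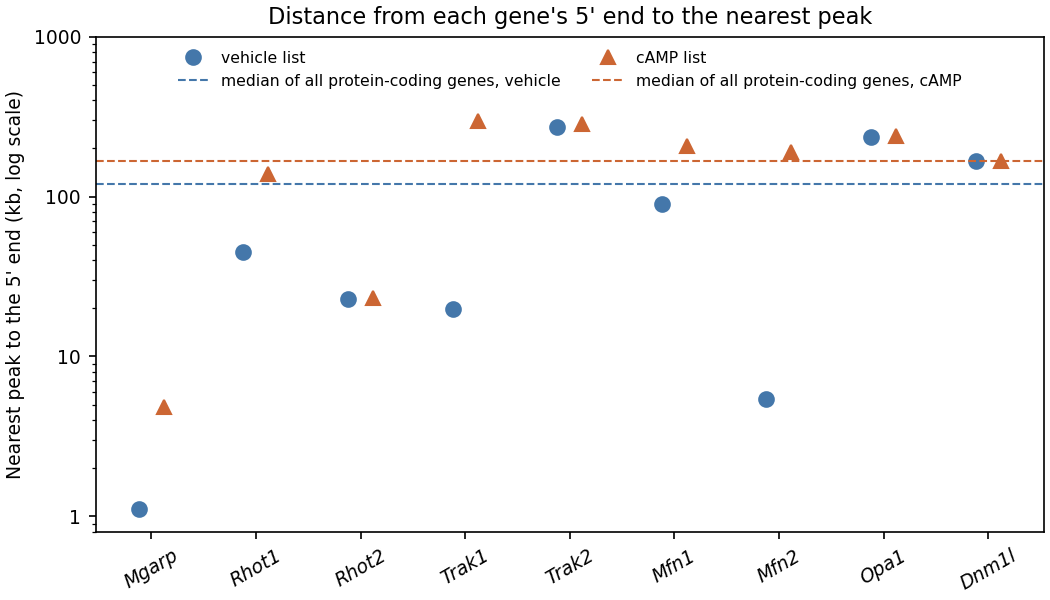
Distance in kb (log scale) from the outermost 5′ end of each of the 9 genes to the nearest peak of the vehicle list (circles) and the cAMP list (triangles). Dashed lines are the medians of protein-coding genes, 120 kb (vehicle, 21728 genes) and 168 kb (cAMP, 21911 genes). *Mgarp*, which was taken from the study of these same libraries, has the nearest peak in both lists, at 1.11 and 4.80 kb.

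No peak of either list touched an annotated promoter of the set. In the RefSeq promoters of the members on GRCm38, which run from 250 bases before to 50 bases after the start and matched all 9 symbols, no consensus copy was present, and 5.73% of all such promoters hold one. A peak centred within 1 kb of the outermost 5′ end was likewise found for 0 of the 9 genes, and for 2.37% (vehicle) and 1.33% (cAMP) of all protein-coding genes.

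A consensus copy lay in 8 of the 9 vehicle peaks, a share of 88.9% (51.8% to 99.7% by the same method), beside 80.4% of all vehicle peaks, and in all 4 of the 4 cAMP peaks (39.8% to 100%), beside 77.1%. Of all stretches of 500 bases of the genome, 8.53% hold it. The peak without a copy was the vehicle peak upstream of *Mgarp*. It also lacked the shorter CAAGGTC and CAAGGCC that 83.8% of all vehicle peaks, 80.0% of all cAMP peaks and 13.8% of stretches of 500 bases hold, but it held AGGTCA, which can be read on the minus strand near the end of the printed sequence and was searched for after the sequence had been seen. AGGTCA is found in 71.5% of vehicle peaks, 69.2% of cAMP peaks and 25.4% of stretches of 500 bases, and a TCAAGGTC that is followed by A contains it. The intron 2 peak of *Mgarp* held no AGGTCA.

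Copies of the consensus far outnumbered peaks. The 9 windows held 388 copies, or 27.2 per 100 kb beside 18.4 per 100 kb of the genome, and 14 of them lay in a peak of either list. Vehicle peaks held 12 of the 388 (3.09%), beside 1.24% of the 487156 copies of the genome, and cAMP peaks 6 (1.55%), beside 0.831%. The genome is an unlike background, since windows of protein-coding genes hold more peaks per Mb than it does (3.07 and 2.09, beside 2.16 and 1.52). Of the 14 copies, 5 lay in the *Mgarp* window, so no enrichment of the set is read from these shares. *Trak1* had 79 copies in its window and 2 in a peak, *Mfn2* had 57 and 1, and *Rhot2* had 45 and 3. The windows without any peak also held copies, 48 for *Mfn1*, 40 for *Trak2*, 27 for *Opa1* and 25 for *Dnm1l*. Within the 14 copies in peaks, TCAAGGTC and TCAAGGCC were each spelled 5 times, and CCAAGGTC and CCAAGGCC each 2 times.

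Of the 14 copies, 8 (57.1%) were in repeat-masked sequence of the reference, beside 36.1% of the copies in all vehicle peaks, 40.9% in all cAMP peaks and 38.1% of all copies of the genome. All 4 copies in the *Mgarp* peaks of the intron, the 3′ side and the place called in both lists were masked, as were both copies in *Trak1* and both in the higher-scoring *Rhot1* window peak. The copies near *Rhot2*, in *Mfn2* and at *Naa15* were not. The authors kept only reads with 1 position in the genome, which limits what can be called in repeated sequence, and whether this touched the peaks of the set was not tested.

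The cAMP response element TGACGTCA was in none of the 13 peaks and is in 0.699% of all vehicle peaks, 0.77% of all cAMP peaks and 0.268% of stretches of 500 bases. The pattern TGANTCA includes the AP-1 element but is wider than it, because N stands for any base. It was in 2 of the 9 peaks called after vehicle and in 2 of the 4 called after cAMP. This stands beside 21.6% and 23.2% of all peaks and 14.3% of stretches of 500 bases. The places were the *Mgarp* intron 2 peak, the *Mgarp* place called in both lists, and the higher-scoring *Rhot1* window peak. ACGTG, the core of the hypoxia response element, was in the *Rhot2* window peaks of both lists and in the higher-scoring *Trak1* peak, and in no peak near *Mgarp*. It is in 26.3% of all vehicle peaks, 24.3% of all cAMP peaks and 16.4% of stretches of 500 bases. The sequence AGATAA, known from binding sites of GATA factors, was only in the vehicle peak beyond the 3′ end of *Mgarp*, beside 25.9% of all vehicle peaks, 23.7% of all cAMP peaks and 30.2% of stretches of 500 bases. All motifs were searched on both strands, and a match is a description of the letters.

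*Star* and *Cyp11a1*, whose products bring cholesterol to the inner membrane and cleave it there, each had 3 vehicle peaks within 50 kb. Within the bodies of these genes the cAMP peaks scored 59.21 for *Star* and 87.11 and 78.27 for *Cyp11a1*, below the 147.76 of the *Mgarp* peak. That peak has the highest cAMP score of the set and is thus a picked value, and the comparison covers gene bodies only. In the vehicle list the bodies of *Star* and *Cyp11a1* each held 1 peak, with scores of 69.68 and 65.55, and that of *Mgarp* held none. A cAMP peak 30.7 kb beyond the *Cyp11a1* start and nearest to *Stra6* scored 337.86, and its vehicle counterpart 123.87. The other cAMP peaks within 50 kb but outside the bodies scored 79.67 and 74.37 for *Star* and 85.79 for *Cyp11a1*. Each of these lay nearest to the start of another gene.

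A wider list of 50 genes of mitochondrial movement, fission, fusion, cristae and quality control was counted by the same rule. Of these, 20 (40%) had a vehicle peak, 16 (32%) a cAMP peak and 13 (26%) both, beside the 36.7%, 28.8% and 22.5% of all protein-coding genes given above. The highest vehicle score was at *Hspa9*, which encodes the mitochondrial chaperone mortalin, where a peak at the 5′ end scored 228.66 and its cAMP counterpart 67.66. *Vapb*, an endoplasmic reticulum protein of contacts with mitochondria, had an intragenic place in both lists with scores of 197.29 and 153.79. The peaks near *Usp30*, a deubiquitinase of the outer membrane, scored 188.69 and 155.97 but were nearest to *Acacb*, and those near *Phb2*, a prohibitin, scored 184.61 and 110.75 but were nearest to *Emg1*. The vehicle peak near *Spire1*, an actin nucleator, scored 162.97, its cAMP counterpart scored 95.96, and both lay nearest to *Afg3l2*.

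Further high cAMP scores in the wider list were 121.79 within *Disc1*, 118.01 near *Mief2*, which encodes a receptor for DRP1 on the outer membrane, and 113.61 near *Myo19*, the mitochondrial myosin, where the nearest starts were those of *Top3a* and *Ggnbp2*. Their vehicle counterparts scored 62.88, 80.66 and 77.16. All of these places were picked for a high score in 1 of the lists, and the depths of the libraries are unknown, so no direction is read from the pairs of scores. Peaks centred within 1 kb of the 5′ end were found for 4 of the 50 genes in the vehicle list (8.0%) and for 3 in the cAMP list (6.0%), beside the 2.37% and 1.33% of all genes. The wider list was chosen with earlier results of these data known, so no enrichment is read from these few genes. These genes, named after their values had been seen, were *Hspa9*, *Mul1* and *Ogt* in both lists and *Mff* in the vehicle list alone. *Mff* encodes the receptor that recruits DRP1 to mitochondria, and its peak, chr1:82724982-82725656, scored 118.04, above 80.8% of the list, and held 2 consensus copies. *Mul1*, an outer membrane ubiquitin ligase, scored 76.20 and 70.39 at its start. *Ogt*, the O-GlcNAc transferase that modifies TRAK adaptors, scored 51.54 and 59.17.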

How the data were processed

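The ChIP-seq reads were mapped by the authors to mm10 with Bowtie (0.12.8 in the submitters' processing notes), with up to 3 mismatches, and only uniquely mapped reads were kept. Peaks were called with MACS per library. Whether the input served as control is not stated, and the input sample was not used here. The deposited lists hold the position and the MACS score of each peak and no read numbers, so depth is unknown. No score is below 50, although the stated p-value threshold was more permissive, and a weaker peak cannot be seen.

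Peaks were joined to GENCODE M21 genes in pandas 2.3.3 and numpy 2.4.6 under Python 3.11.15. A counterpart shares at least 1 bp. Intervals at the 95% level were computed with scipy 1.17.1, and plots with matplotlib 3.10.9. Positions count from 1. The TSS is that of the principal (APPRIS) transcript, whereas nearest gene starts and distance ranks use outermost 5′ ends. No test was made, with 1 library per condition. The functions were tested on simulated data. The members, the wider list, the markers and the alternatives were chosen with earlier results of these data known. Named genes are the members, genes nearest to their peaks, the wider-list genes with the 5 highest scores in each list, *Star* and *Cyp11a1*. *Mff*, *Mul1* and *Ogt* were added after their values had been seen.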

Additional observations from a re-analysis of the deposited data

How the results depend on the processing

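The counts depend on the window and on the score allowed. Genes of the set with a vehicle peak, a cAMP peak and a peak in both lists numbered 2, 1 and 0 with the gene body only, 3, 1 and 1 with 10 kb, with 20 kb, and where the nearest start had to be the member's, and 2, 1 and 0 with scores of at least 100. With scores of at least 75 the cAMP count and the count in both lists were 1 and 1. The vehicle peaks numbered 3 with the gene body only, 5 with 10 kb, 14 with 100 kb, 5 with scores of at least 75 and 2 with at least 100, and the cAMP peaks 1, 1, and, by score, 2 and 1, and 2 where the nearest start had to be the member's. With scores of at least 100 a counterpart was found for 0% of vehicle and 0% of cAMP peaks. With at least 75 or 100 the consensus was in 100% of vehicle peaks. Stricter settings leave fewer peaks by construction. The *Mfn2* peak was lost with scores of at least 75, and with 100 kb *Mfn1* and *Mfn2* each had 1 vehicle peak. Counts for single genes moved by over 1.5 times in 28 cases and not in 98. Vehicle peaks at *Mgarp* fell from 3 to 1 with scores of at least 75 and to 0 with at least 100 or in the gene body only, and its cAMP peaks from 3 to 1 with 10 kb, the gene body only or scores of at least 100. *Rhot1* and *Rhot2* had no peak with 20 kb or less, and with 100 kb *Rhot2* had 3 vehicle peaks and *Rhot1* 1 cAMP peak. AGGTCA in place of the consensus, chosen after seeing the data, was in 88.9% of the vehicle peaks and in 50% (2 of 4) of the cAMP peaks, where the consensus was in 4 of 4. No paired analysis was possible because each condition has 1 library.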

Other observations

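The study joined 2 fragments of *Mgarp* to a reporter, and both can be placed on mm10 from the TSS. From the principal GENCODE TSS, the upstream fragment spans chr3:51396516-51398412 and shares 566 of the 606 bp of the vehicle peak upstream of the gene, while it shares no base with a cAMP peak and holds no consensus copy. The fragment made from the ChIP peak spans chr3:51391514-51391968 and contains the whole cAMP peak in intron 2, all 362 bp, with its copy. Measured from the outermost GENCODE 5′ end instead, the upstream fragment contains the whole vehicle peak and the other fragment shares 234 bp with the cAMP peak. No activity of either fragment was analysed here.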
